A study of Rattus norvegicus with 11 samples.

Results

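The genes described here encode the nuclear-encoded subunits of the mitochondrial respiratory chain and of ATP synthase, together with the carriers that supply ATP synthase with ADP and phosphate. They were chosen by symbol: every gene named on the array with a symbol beginning Nduf, Uqcr, Atp5 or Cox4 to Cox8, the genes Sdha to Sdhd, Cyc1 and Cycs, and the carriers Slc25a3 to Slc25a5. The rule used names and no measured value. It found 58 genes of 4736 measured: 27 of complex I, 1 of complex II, 4 of complex III, 13 of complex IV, 10 of ATP synthase and 3 carriers, and none for cytochrome c itself. A further 7 probe sets are annotated to several genes that include such a gene and were counted apart. The set also holds Cox6c-ps1, a pseudogene, the complex I assembly factor Ndufaf3, the ATP synthase inhibitor Atp5if1 and the tissue isoforms Cox4i2, Cox6a2, Cox8b and Ndufa4l2; 51 members remain without these.

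Total RNA of rat alveolar epithelial cells was measured on 11 Affymetrix expression arrays. Of these, 4 held freshly isolated type II (TII) cells and 4 held freshly isolated type I (TI) cells, all at day 0, and 3 held TII cells at day 7 of culture. The groups follow the sample descriptions; the source field names isolated TI cells on all 11 arrays, and no strain, age, treatment or culture surface is stated. Nothing in the labels tells whether replicate arrays came from different animals, and the p-values therefore reflect array-to-array spread, which may be technical.

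The respiratory chain passes electrons from NADH through complex I, and from succinate through complex II, to ubiquinone, then through complex III and cytochrome c to complex IV, which reduces oxygen. Complexes I, III and IV pump protons out of the mitochondrial matrix, and ATP synthase uses their return to make ATP. Complexes I, III and IV and ATP synthase each combine many nuclear-encoded subunits with a few made from mitochondrial DNA. TI cells are thin and flat and cover most of the alveolar surface for gas exchange, whereas TII cells are cuboidal, secrete surfactant and are rich in mitochondria.

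The listed markers of the alveolar cell types followed the descriptions. The summed signal of 5 type I markers was 904.0 to 975.1 in fresh TII, 2009.5 to 2884.5 in cultured TII and 9393.6 to 10107.3 in fresh TI arrays. That of 6 type II markers was 28140.2 to 30083.5, 693.1 to 1049.8 and 3649.5 to 9870.2. Fresh TI arrays 1 and 4 stood apart: the standard deviation of all their log2 values was 1.80 and 1.77, against 1.85 and 1.84 on fresh TI arrays 2 and 3 and 1.92 to 1.97 on the other arrays. They had less type II marker signal (6532 and 3650) than fresh TI arrays 2 and 3 (9377 and 9870). Fibroblast and smooth muscle markers, 12 of 12 measured, also moved with the groups, with summed signals of 763.8 to 1015.1 in fresh TII, 1164.2 to 1616.7 in cultured TII and 1771.0 to 3341.8 in fresh TI arrays. Heart and striated muscle markers (10 of 12 measured) summed to 415.5 to 445.5, 541.6 to 712.6 and 392.2 to 482.9. Airway markers (4 of 5 measured) summed to 3266.9 to 4063.5, 373.7 to 506.7 and 321.4 to 361.8. Macrophage and leukocyte markers (8 of 16) summed to 414.2 to 454.3, 418.0 to 727.4 and 473.4 to 488.4. Endothelial markers (5 of 9) summed to 229.9 to 256.5, 211.1 to 231.0 and 237.3 to 340.9, and red blood cell markers (2 of 4) summed to 453.0 to 1262.4, 164.4 to 174.7 and 282.0 to 401.1. The beta-actin 3′ probe set exceeded the 5′ set by 0.32 to 0.43 (log2) in fresh TII but lay below it by 0.08 to 0.33 in cultured TII, a difference of -0.53 (exact permutation test, two-sided, p = 0.0571, the smallest that 3 arrays against 4 allow; adjusted over 6 tests p = 0.114). That p and adjusted p also held for beta-actin in fresh TI minus cultured TII (0.50) and for GAPDH in cultured minus fresh TII (-0.13). The other permutation tests gave p = 0.114 to 0.657. The part of none of these in the results below was tested.

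Each gene's own mean was taken as the mean of its group means. Each array's median deviation of the 58 members from these means placed the groups in the order cultured TII, fresh TII, fresh TI. It was 0.35, 0.33 and 0.36 (log2) on the cultured TII arrays, 0.06, -0.10, -0.10 and -0.07 on the fresh TII arrays, and -0.37, -0.19, -0.16 and -0.46 on the fresh TI arrays. No array of a group reached another group's range. The lowest were fresh TI arrays 1 and 4. Over all 4736 genes the same median lay between -0.06 and 0.09 on all 11 arrays. Members are bright, with 46 of 58 in the brightest 20% of genes by mean signal, so the 948 genes of that share are the nearer background; their median was 0.12 to 0.16 in cultured TII, -0.04 to 0.00 in fresh TII and -0.24 to -0.09 in fresh TI arrays. In bulk RNA, fewer cells of a type and less RNA per cell cannot be told apart.

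**Figure D1:**
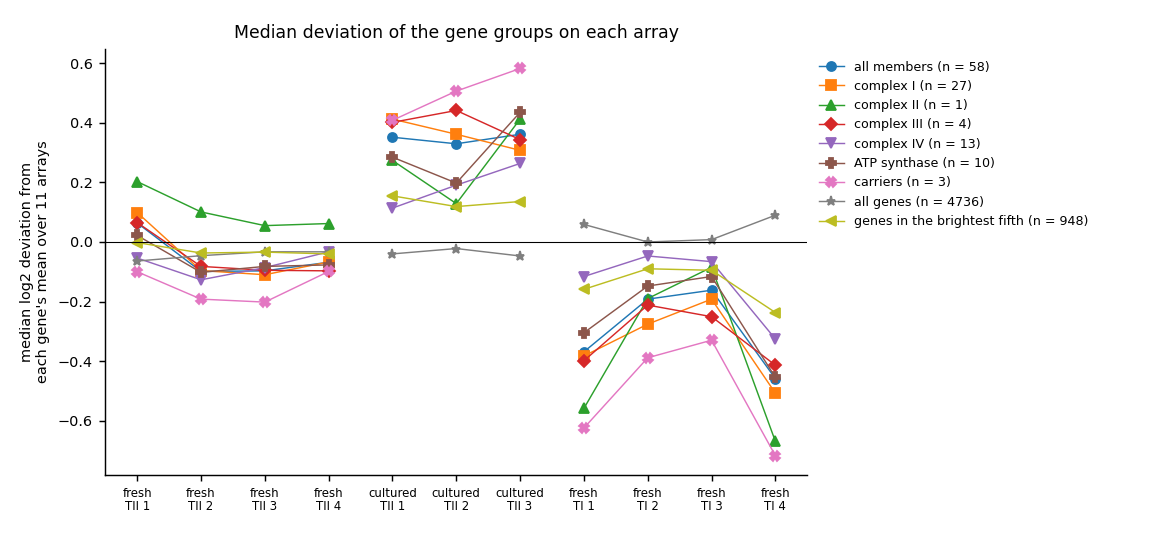
Median log2 deviation of each gene group from its genes' own means (y axis), for each array (x axis). Each gene's own mean is the mean of its group means, though the axis label names the mean over 11 arrays. Each marker is a median over the number of genes in the legend, and complex II is the single gene Sdha. The cultured TII arrays lie at 0.33 to 0.36 for all members, above every fresh array, and fresh TI arrays 1 and 4 are the lowest at -0.37 and -0.46.

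Culture of TII cells was the first comparison, and most members were higher after 7 days. Of 58 members, 35 rose, 2 fell and 21 did not pass the test (limma, Benjamini-Hochberg adjusted p under 0.05 over all 8740 probe sets). In the same comparison 20.5% of all genes and 38.1% of the brightest 20% were called higher, and 14.0% and 20.9% were called lower. The median member difference, cultured minus fresh TII, was 0.37 (log2), beside -0.01 over all genes and 0.13 over the brightest 20%. The differences were modest: 14 called members differed by at least 1.5-fold and 1 by at least 2-fold. The same counts were 847 and 411 among all 4736 genes, and 354 and 204 among the 948 of the brightest 20%. Because signal distributions of the arrays differ, the fit was repeated with arrays centred on their medians, scaled to the same spread or quantile normalized. Under all 4 scalings 29 members were called higher, a call that 18.9% of all genes and 33.9% of the brightest 20% received. They were 16 of 27 in complex I, 2 of 4 in complex III and 2 of 3 carriers. Complex IV held 5 of 13 and ATP synthase 4 of 10, shares near that of the brightest 20%.

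Complex I supplied 18 of the risers, and none of its 27 genes was called lower as deposited. Under quantile normalization Ndufv2 (-0.21, adjusted p = 0.0398) and Ndufv3 (-0.27, adjusted p = 0.0169) were called lower, Ndufv3 with equal spread too. Ndufc1, a small subunit of the membrane arm, read 8.22, 8.02, 7.84 and 7.96 (log2 values) on the fresh TII arrays and 8.88, 8.98 and 8.96 on the cultured TII arrays. All cultured arrays lay above all fresh TII arrays, and the log2 difference was 0.93 ± 0.10 (SE; 1.90-fold, adjusted p = 7.61e-06). Its other probe set gave 0.64. Ndufa8, another accessory subunit, read 6.99, 6.98, 7.09 and 7.03 in fresh TII and 7.995, 8.053 and 7.702 in cultured TII cells, again without overlap, with a log2 difference of 0.89 ± 0.10 (adjusted p = 1.68e-05). The membrane-arm subunits Ndufb2, Ndufb6 and Ndufb5 rose by 0.78, 0.74 and 0.63 (log2). The other probe set of Ndufb6 was also called higher. That of Ndufb5, nearly as bright (mean 7.08 against 7.25), gave 0.035 and was not called (adjusted p = 0.867). Ndufa4, first described in complex I and now assigned to complex IV, rose by 0.74 ± 0.12. In every count and list here it stands with complex I, where its symbol places it, and not with complex IV. Among the iron-sulfur subunits of the peripheral arm, Ndufs1 rose by 0.48 ± 0.10 and Ndufs8 by 0.35 ± 0.09, while Ndufs7 differed by -0.02 ± 0.09 and Ndufv2 by -0.12 ± 0.07 (adjusted p = 0.894 and 0.252). The other probe sets of Ndufs8 gave 0.48, called higher, and 0.18 and 0.08, not called. The set at 0.08 was nearly as bright as the one used (mean 7.70 against 8.01).

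Among the smaller complex I calls, some were lost when 1 array was left out. Ndufa3, the least of them at 0.26 ± 0.09 (log2), overlapped between the groups, reading 8.04 to 8.31 in fresh TII and 8.30 to 8.51 in cultured TII cells. Its adjusted p of 0.0432 rose to 0.162 without cultured TII array 2, and its call was lost in 7 of 11 fits that left out 1 array (fresh TII 2, 3 or 4, cultured TII 1 or 2, fresh TI 1 or 2) and under quantile normalization (adjusted p = 0.159) and equal spread (0.0751). The assembly factor Ndufaf3 rose by 0.37 ± 0.11, but without cultured TII array 1 the difference was 0.27 (adjusted p = 0.0905), without fresh TII array 3 the call was also lost, and another of its probe sets, dimmer, was called lower (-0.36).

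Sdha, the flavoprotein of succinate dehydrogenase and the only gene of complex II measured, read 7.20 to 7.34 in fresh TII and 7.42, 7.27 and 7.56 in cultured TII cells; the groups overlapped, and the log2 difference of 0.17 ± 0.13 did not pass the test (adjusted p = 0.391). In complex III, 3 of 4 rose. Uqcr11, a small subunit, read 9.153, 8.811, 8.998 and 8.956 in fresh TII and 9.77, 9.77 and 9.60 in cultured TII cells, without overlap, a log2 difference of 0.74 ± 0.09 (adjusted p = 2.9e-05). Cyc1, which carries the haem of cytochrome c1, rose by 0.56 ± 0.08. Uqcrfs1, the Rieske iron-sulfur protein, rose by 0.37 ± 0.13 (adjusted p = 0.0434), a call lost in 6 of 11 fits that left out 1 array (fresh TII 2, 3 or 4, cultured TII 2 or 3, fresh TI 1), with an adjusted p of up to 0.136 at a difference of 0.33, and also lost with quantile normalization (adjusted p = 0.0759) and equal spread (0.0586). It read 8.84, 9.05 and 9.06 in cultured TII and 8.50 to 8.80 in fresh TII cells, without overlap.

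In complex IV, 7 of 13 genes rose and Cox6a2 fell. Cox8a, the common isoform of the small subunit VIII, read 10.207, 10.024, 10.122 and 10.001 in fresh TII and 10.95, 11.01 and 10.83 in cultured TII cells. The groups did not overlap, and the log2 difference was 0.84 ± 0.08 (adjusted p = 4.08e-06); its 3 other probe sets were also called higher, by 0.41 to 0.62. Cox6a1 followed with 0.78 ± 0.10, Cox7b with 0.66 ± 0.09 and Cox6b1 with 0.52 ± 0.08. Cox4i1, which holds the ATP-binding regulatory site of the enzyme, differed by 0.12 ± 0.10 at its brightest probe set and did not pass the test (adjusted p = 0.418). Its 2 other sets were called higher, at 0.27 and 0.36 (adjusted p = 0.0296 and 0.0392). The call for Cox6c (0.24 ± 0.08, adjusted p = 0.0396) was lost in 6 of 11 fits with 1 array left out (fresh TII 2, 3 or 4, or any of the cultured TII arrays), where the adjusted p reached 0.145 at a difference of 0.20, and under quantile normalization (0.167) and equal spread (0.0864). Its other, dimmer probe set was called lower (-0.42).

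ATP synthase held 5 risers of 10, and Atp5f1e fell. The gamma subunit Atp5f1c, part of the rotating stalk, read 7.65, 7.30, 7.55 and 7.39 in fresh TII and 8.38, 7.90 and 8.13 in cultured TII cells, without overlap, and rose by 0.66 ± 0.13 (log2; adjusted p = 0.00135). The catalytic beta subunit Atp5f1b rose by 0.46 ± 0.08, the delta subunit Atp5f1d by 0.58 ± 0.11 and the inhibitor Atp5if1, which blocks the enzyme when the matrix turns acid, by 0.65 ± 0.15. The catalytic-head partner Atp5f1a, at 0.15 ± 0.08, did not pass the test. Atp5f1e, the epsilon subunit, was the exception: it read 10.03, 9.68, 9.79 and 9.73 in fresh TII and 9.55, 9.45 and 9.35 in cultured TII cells, with no overlap, and fell by 0.36 (log2; SE 0.09, adjusted p = 0.00875). Its other probe set differed by -0.10 and was not called.

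**Figure D2:**
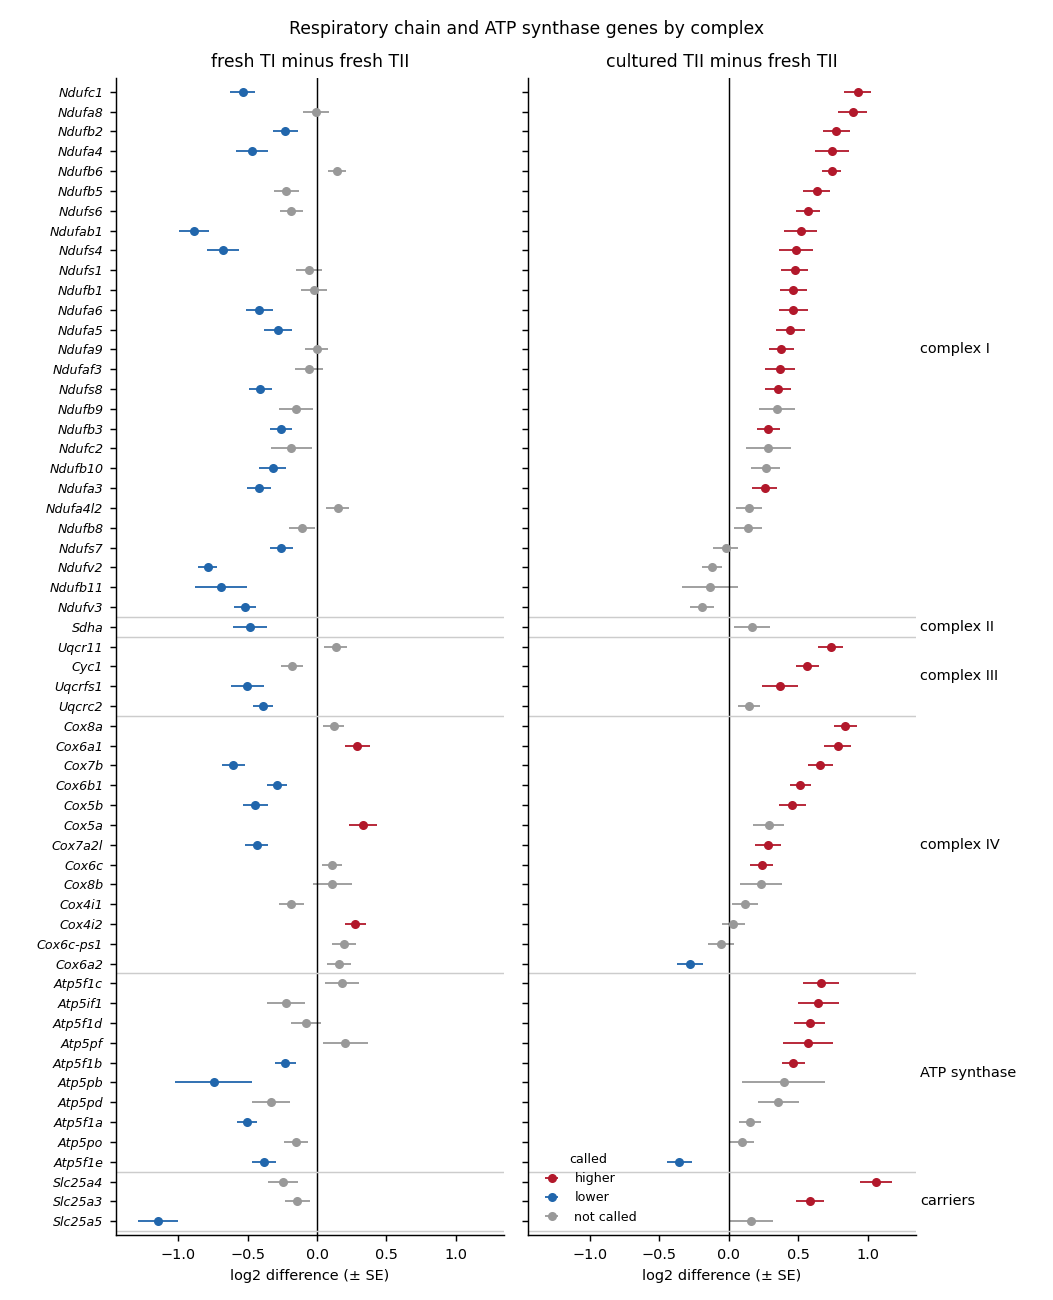
Log2 difference with its standard error (x axis) for each of the 58 members (y axis), grouped by complex, for fresh TI minus fresh TII (left) and cultured TII minus fresh TII (right); red marks called higher, blue called lower and grey not called at an adjusted p under 0.05. On the right 35 points are red and 2 blue; on the left 3 are red and 27 blue, with Slc25a5 lowest at -1.15. Both panels use the fresh TII arrays.

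Slc25a4 and Slc25a5 encode the adenine nucleotide translocases, which exchange ATP made in the matrix for cytosolic ADP; Slc25a4 is the main form of heart and skeletal muscle and Slc25a5 a form of proliferating cells. Slc25a4 read 8.05, 7.91, 7.76 and 7.85 (log2 values) in fresh TII, 9.06, 9.05 and 8.75 in cultured TII and 7.54, 7.78, 7.84 and 7.45 in fresh TI cells. The cultured arrays stood above all others, while the fresh groups overlapped. The difference between cultured and fresh TII was 1.06 ± 0.11 (2.08-fold, adjusted p = 8.79e-06), the highest of the members. Fresh TI minus fresh TII was -0.24 ± 0.11 and missed the threshold (adjusted p = 0.0672), though it passed under median centring and in 3 of 11 fits with 1 array left out. Slc25a5 read 9.17, 9.03, 8.84 and 8.91 in fresh TII, 8.99, 9.17 and 9.29 in cultured TII and 7.74, 8.04, 8.17 and 7.41 in fresh TI cells. Here the fresh TI arrays stood below all others, and cultured and fresh TII overlapped. Fresh TI minus fresh TII was -1.15 ± 0.14 (2.22-fold lower, adjusted p = 3.37e-05), the lowest of the members, and -0.88 without fresh TI arrays 1 and 4. Cultured minus fresh TII was 0.16 ± 0.16 (adjusted p = 0.501). Slc25a3, the phosphate carrier, had the same calls as Slc25a4: it rose in culture by 0.59 ± 0.10 and differed by -0.14 ± 0.09 between fresh TI and fresh TII cells (adjusted p = 0.200). Each of these carriers has only 1 probe set here. Those of Slc25a4 and Slc25a5 bear a suffix that marks shared sequence, and how well they separate the genes was not tested.

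**Figure D3:**
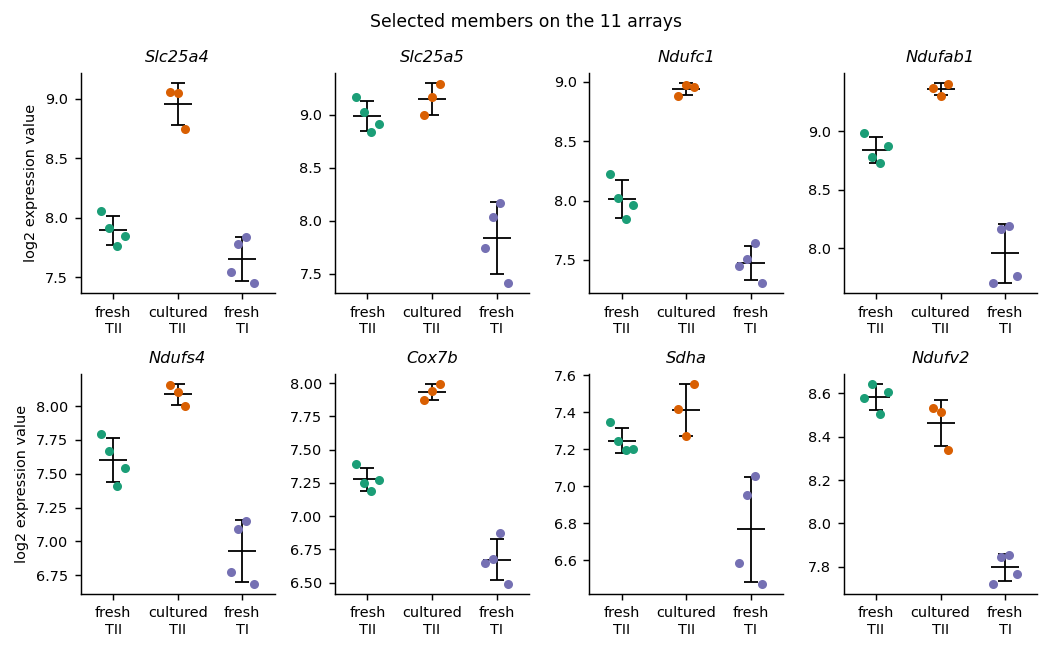
Log2 expression value (y axis) on each array (points) by group (x axis) for 8 members, with the group mean and SD as bars; n = 4 fresh TII, 3 cultured TII and 4 fresh TI arrays, and each panel has its own scale. Slc25a4 is high in cultured TII only, with a mean of 8.95 against 7.90 and 7.65, and Slc25a5 is low in fresh TI only, with a mean of 7.84 against 8.99 and 9.15.

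Fresh TI cells were next compared with fresh TII cells. Of 58 members, 27 were lower in fresh TI, 3 were higher and 28 did not pass the test, beside 21.2% of all genes and 38.8% of the brightest 20% called lower, and 33.0% and 25.9% called higher. The median difference was -0.22 (log2), beside 0.11 over all genes and -0.09 over the brightest 20%. These counts moved with the scaling of the arrays: quantile normalization gave 8 members higher and 15 lower with a median of -0.05, while the brightest 20% moved to 0.10 and all genes to 0.07. With equal spread the counts were 5 and 19 (median -0.12), and with median centring 3 and 32 (median -0.27). Without fresh TI arrays 1 and 4 the counts were 4 and 19 and the median was -0.13. Under all 4 scalings 15 members were called lower, which is 25.9% of them, against 18.7% of all genes and 28.9% of the brightest 20%, so the share of members is near that of equally bright genes.

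The 15 members called lower in fresh TI under every one of those scalings were 9 of complex I (Ndufa3, Ndufa6, Ndufab1, Ndufb11, Ndufc1, Ndufs4, Ndufs8, Ndufv2 and Ndufv3), Sdha, Uqcrc2, Cox7a2l, Cox7b, Atp5f1a and Slc25a5. Ndufab1, the mitochondrial acyl carrier protein, which serves both complex I and fatty acid synthesis, read 8.99, 8.78, 8.73 and 8.87 in fresh TII and 7.71, 8.16, 8.19 and 7.76 in fresh TI cells, without overlap. Its log2 difference was -0.89 ± 0.11 (1.85-fold lower, adjusted p = 3.42e-05), and its 2 other probe sets gave -0.71 and, at the dimmest, 0.29, called the other way. Ndufv2, an iron-sulfur subunit of the NADH-oxidising module, read 8.58, 8.65, 8.51 and 8.61 in fresh TII and 7.72, 7.84, 7.85 and 7.77 in fresh TI cells. The groups did not overlap, and the log2 difference was -0.79 ± 0.07 (adjusted p = 1.19e-06). Its partner in that module, Ndufv3, differed by -0.52 ± 0.08.

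Ndufs4, an accessory subunit whose loss in patients causes Leigh syndrome, read 7.79, 7.67, 7.41 and 7.54 in fresh TII and 6.78, 7.09, 7.15 and 6.69 in fresh TI cells, again without overlap, with a log2 difference of -0.68 ± 0.11 (adjusted p = 0.000366). Its other probe sets gave -0.12, not called, and 0.46, called higher and the dimmest of all these sets. Ndufb11 differed by -0.69 ± 0.19, but its 2 fresh TI arrays 1 and 4 read 6.66 and 6.18 against 7.12 and 7.06 on arrays 2 and 3, and without arrays 1 and 4 the difference was -0.36 (adjusted p = 0.0638). Ndufa6 differed by -0.42 ± 0.10, with another, dimmer probe set called the other way (0.35). Ndufs8 differed by -0.41 ± 0.08. Its other probe sets gave -0.21, called lower, and -0.05 and 0.125, not called. The least called member of complex I, Ndufb2 (-0.23 ± 0.09, adjusted p = 0.0443), turned to 0.05 under quantile normalization. It lost its call when any 1 fresh TII array, or fresh TI array 1 or 4, was left out, with an adjusted p of 0.131 and a difference of -0.18 without fresh TII array 1. Ndufa8, Ndufa9 and Ndufb1, all higher in culture, differed between the fresh groups by -0.01, -0.00 and -0.02 (log2), with standard errors of 0.10, 0.08 and 0.09. Under quantile normalization they differed by 0.06, 0.04 and 0.24, where Ndufb1 was called higher in fresh TI (adjusted p = 0.0163).

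Sdha was lower in fresh TI cells, at 6.58, 6.95, 7.06 and 6.47 against 7.34, 7.24, 7.20 and 7.20 in fresh TII cells, with no overlap and a log2 difference of -0.48 ± 0.12 (adjusted p = 0.00537), which was -0.24 (adjusted p = 0.0476) without fresh TI arrays 1 and 4. In complex III, Uqcrfs1 read 8.80, 8.58, 8.58 and 8.50 in fresh TII and 8.04, 8.34, 8.30 and 7.78 in fresh TI cells, a log2 difference of -0.50 ± 0.12 (adjusted p = 0.00392) that missed the threshold after quantile normalization (-0.24, adjusted p = 0.0579) and was -0.30 (adjusted p = 0.0318) without fresh TI arrays 1 and 4. Uqcrc2, a core protein of the complex, differed by -0.39 ± 0.07. In ATP synthase the alpha subunit Atp5f1a differed by -0.50 ± 0.07 and the beta subunit Atp5f1b by -0.23 ± 0.08, the latter turning to 0.11 under quantile normalization. The call for Atp5f1b was also lost without fresh TII array 1 or 3 or fresh TI array 1 or 4, where its adjusted p reached 0.0655 at a difference of -0.20. The stator subunit Atp5pb had the greatest difference of that complex, -0.74 ± 0.28 (adjusted p = 0.038), from fresh TI arrays that disagreed: arrays 1 and 4 read 6.67 and 6.28, and arrays 2 and 3 read 7.80 and 7.67, within the fresh TII range of 7.61 to 7.98. Without arrays 1 and 4 the difference was -0.11 (adjusted p = 0.515), without array 1 alone it was -0.60 (adjusted p = 0.114), and without array 4 alone it was -0.47. Leaving out fresh TII array 1, 2 or 4 also ended the call, as did quantile normalization (adjusted p = 0.082) and equal spread (0.0616). Its partner Atp5pf, another stalk subunit, differed by 0.21 ± 0.17 and was not called. Without arrays 1 and 4 it was called higher in fresh TI cells, at 0.52 (adjusted p = 0.00444), and also without array 4 alone.

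As deposited, complex IV was the only group with calls both ways between fresh TI and fresh TII cells. Of its 13 members, 4 were lower and 3 were higher, with a median difference of 0.11 (log2). Its positive differences included those of the pseudogene Cox6c-ps1 and the tissue isoforms Cox4i2, Cox6a2 and Cox8b. Quantile normalization also called Ndufb1, Ndufb6 and Ndufb8 of complex I, Uqcr11 and Atp5f1c higher (0.24, 0.21, 0.18, 0.44 and 0.32), beside lower calls in the same complexes. Equal spread called Ndufb6 and Uqcr11 higher too. Cox7b, a small subunit, read 7.39, 7.25, 7.19 and 7.27 in fresh TII and 6.65, 6.68, 6.87 and 6.49 in fresh TI cells, without overlap, a log2 difference of -0.60 ± 0.08 (adjusted p = 7.61e-05). Cox5b differed by -0.45 ± 0.09 (-0.16 and not called under quantile normalization, adjusted p = 0.0744), Cox7a2l, a factor in joining complexes III and IV into supercomplexes, by -0.44 ± 0.08, and Cox6b1 by -0.29 ± 0.07; Cox6b1 turned to 0.04 under quantile normalization. Cox5a was higher by 0.33 ± 0.10 (adjusted p = 0.0164), but the groups overlapped, with 4.95 to 5.06 in fresh TII and 5.02 to 5.51 in fresh TI cells, and it missed the threshold with quantile normalization (adjusted p = 0.0719) and equal spread (adjusted p = 0.0592).

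Both a common and a tissue isoform were measured for 3 subunits of complex IV. Cox4i2, the form of subunit IV found in lung, read 8.34, 8.44, 8.15 and 8.40 in fresh TII, 8.31, 8.39 and 8.40 in cultured TII and 8.62, 8.50, 8.66 and 8.64 in fresh TI cells. The fresh TI arrays lay above all others, by 0.28 ± 0.08 (log2) over fresh TII (adjusted p = 0.00873) and 0.24 ± 0.08 over cultured TII cells (adjusted p = 0.0216), and the former held under all 4 scalings. The latter missed the threshold with median centring (difference 0.19, adjusted p = 0.0555), without cultured TII array 1 (difference 0.21, adjusted p = 0.0754) and without fresh TI arrays 1 and 4 (0.22, adjusted p = 0.0849). Cox4i1 read 10.47, 10.32, 10.39 and 10.38 in fresh TII, 10.40, 10.50 and 10.64 in cultured TII and 10.27, 10.32, 10.28 and 9.96 in fresh TI cells. This set, the brightest of 3, was called only for fresh TI minus cultured TII, at -0.30 ± 0.10 (adjusted p = 0.0165), and that value turned to 0.07 under quantile normalization and 0.02 with equal spread. It was not called without cultured TII array 3 (-0.24, adjusted p = 0.0747). The 2 other Cox4i1 sets were called lower in that comparison too (-0.46 and -0.42). The difference between the isoforms was not itself tested.

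Cox6a1 read 9.78, 9.71, 9.68 and 9.66 in fresh TII, 10.40, 10.53 and 10.55 in cultured TII and 9.95, 10.15, 10.15 and 9.74 in fresh TI cells. Cultured TII cells were highest, and fresh TI cells exceeded fresh TII cells by 0.29 ± 0.09 (adjusted p = 0.0178), with an overlap at fresh TI array 4 and an adjusted p of 0.0503 (difference 0.24) without fresh TI array 3, but 0.44 without fresh TI arrays 1 and 4. Its 2 other probe sets gave 0.23 and 0.08 and were not called (adjusted p = 0.0689 and 0.51). Cox6a2, the heart and skeletal muscle form, ran the other way and was lowest in cultured TII cells: 6.40, 6.43, 6.43 and 6.45 in fresh TII, 6.01, 6.12 and 6.32 in cultured TII and 6.65, 6.47, 6.46 and 6.78 in fresh TI cells. All arrays of the 3 groups were separate, and it fell in culture by 0.28 (log2; SE 0.10, adjusted p = 0.0386), a call that left-out arrays ended in 6 of 11 fits (any fresh TII array, cultured TII 1 or 2), with an adjusted p of 0.171 and a difference of -0.21 without cultured TII array 1. Its 2 other probe sets differed by -0.02 and -0.04 in culture. Fresh TI minus cultured TII was 0.44 ± 0.10 (adjusted p = 0.00186) and was called under all 4 scalings. The brighter probe set of Cox8b, the muscle form of subunit VIII, did not pass in any comparison: it read 6.14 to 6.56 in fresh TII, 6.56 to 6.58 in cultured TII and 6.01 to 6.69 in fresh TI cells. Its other, dimmer set was called higher in fresh TI than in fresh TII (0.52, adjusted p = 0.00376) and than in cultured TII cells (0.40, adjusted p = 0.0196). Cox8a differed between the fresh groups by 0.12 ± 0.08 (adjusted p = 0.204) as deposited, and by 0.45 and 0.37 under quantile normalization and equal spread, where it was called higher in fresh TI.

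**Figure D4:**
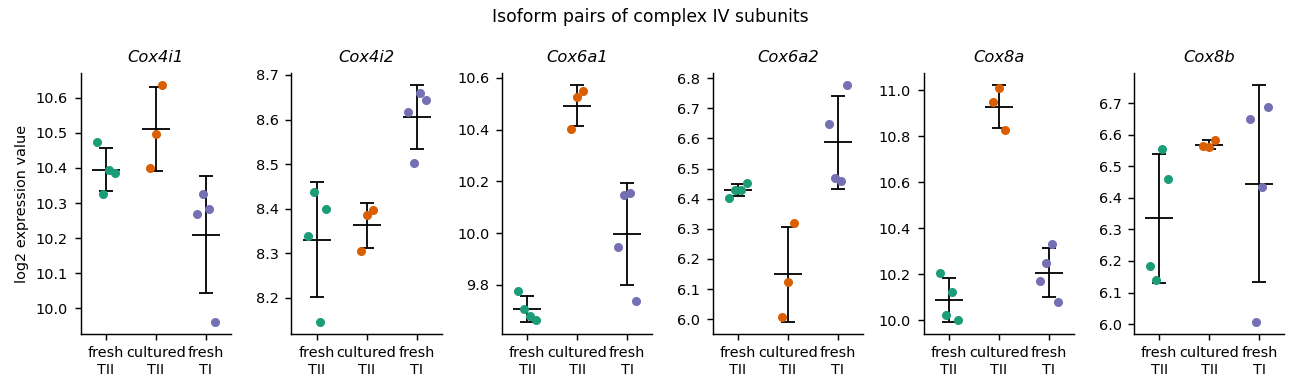
Log2 expression value (y axis) on each array (points) by group (x axis) for 3 isoform pairs of complex IV subunits, with the group mean and SD as bars; n = 4 fresh TII, 3 cultured TII and 4 fresh TI arrays, each panel on its own scale. Cox6a1 and Cox8a are highest in cultured TII cells, while Cox4i2 is highest in fresh TI cells and Cox6a2 is lowest in cultured TII cells.

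Subunits made from mitochondrial DNA were measured for complex IV only, by 4 probe sets for COX1, COX2 and COX3, which form its catalytic core. They were not chosen by the rule, and their differences had the sign opposite to that of most nuclear members. COX1 (its brighter probe set) read 12.03, 11.75, 11.76 and 11.77 (log2 values) in fresh TII, 11.61, 11.77 and 11.71 in cultured TII and 12.53, 12.39, 12.30 and 12.49 in fresh TI cells. COX2 read 10.74, 10.53, 9.99 and 10.27, then 10.14, 10.24 and 9.83, then 11.22, 11.16, 11.03 and 11.09 in the same order of groups. COX3 read 11.59, 11.46, 11.11 and 11.24, then 11.07, 11.27 and 10.96, then 11.97, 11.94, 11.81 and 11.98. For each of these the fresh TI arrays lay above all others. Fresh TI minus fresh TII was 0.60 ± 0.08 for COX1, 0.74 ± 0.14 for COX2 and 0.58 ± 0.11 for COX3 (adjusted p = 7.41e-05, 0.000923 and 0.000695), and the differences stayed called and positive under all 4 scalings, at 0.41 to 1.04. Cultured minus fresh TII was -0.13 (0.12 under quantile normalization), -0.31 and -0.25 and was not called (adjusted p = 0.329, 0.145 and 0.118). Without fresh TII array 3, COX2 and COX3 were called lower in culture (adjusted p = 0.0224 and 0.0373). Of the nuclear members of the same complex, 4 lay wholly lower in fresh TI than in fresh TII cells (Cox5b, Cox6b1, Cox7a2l and Cox7b). Another 2 lay wholly higher (Cox4i2 and Cox6a2), and 8 of 13 had a positive difference. Cox6a2 was not called (adjusted p = 0.139), and its lowest fresh TI value was 6.457 against a highest fresh TII value of 6.451. Among all 4736 genes, 959 lay wholly lower and 1430 wholly higher, and among the 948 brightest, 368 and 243.

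**Figure D5:**
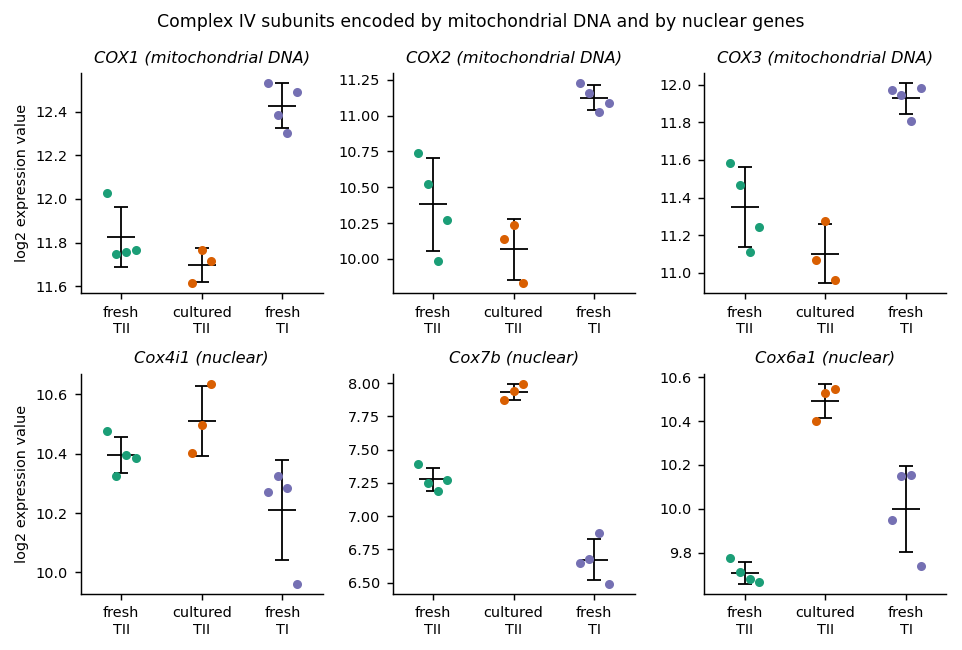
Log2 expression value (y axis) on each array (points) by group (x axis) for complex IV subunits encoded by mitochondrial DNA (top) and by nuclear genes (bottom), with the group mean and SD as bars; n = 4 fresh TII, 3 cultured TII and 4 fresh TI arrays, each panel on its own scale. In the top row the fresh TI arrays lie above all others, and in the bottom row Cox7b is lowest there at 6.49 to 6.87.

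Fresh TI cells lay furthest from cultured TII cells. Of the members, 49 were lower in fresh TI, 3 were higher and 6 did not pass the test, beside 25.8% of all genes and 50.7% of the brightest 20% called lower and 34.2% and 24.8% called higher. The median was -0.65 (log2), beside 0.11 over all genes and -0.28 over the brightest 20%. It was -0.39 under quantile normalization, with 37 members lower, and -0.50 with equal spread, with 41 lower. Under all 4 scalings 37 members were called lower, against 22.0% of all genes and 35.9% of the brightest 20%. As deposited, those called lower were 26 of 27 members of complex I, all but Ndufa4l2, then Sdha, all 4 of complex III, 7 of 13 of complex IV, 8 of 10 of ATP synthase and all 3 carriers. Under all 4 scalings they were 19 of complex I, Sdha, 3 of complex III, 5 of complex IV, 6 of ATP synthase and 3 carriers. In both counts the share of complex IV was near that of the brightest 20%. The lowest were Ndufc1 at -1.46 ± 0.10 (2.76-fold, adjusted p = 1.31e-07), Ndufab1 at -1.40 ± 0.12, Slc25a5 at -1.31 ± 0.16, Slc25a4 at -1.30 ± 0.11 and Cox7b at -1.26 ± 0.09, and 9 members were at least 2-fold lower. Called differences of at least 2-fold, either way, numbered 411 among all 4736 genes and 223 among the 948 of the brightest 20%. Ndufc1 read 7.45, 7.51, 7.64 and 7.30 on the fresh TI arrays, below every other array. Called higher in fresh TI were Cox6a2, Cox4i2 and the pseudogene Cox6c-ps1 (0.25 ± 0.09, adjusted p = 0.0342; not called under quantile normalization, 0.163, or equal spread, 0.153). The weakest calls did not withstand the removal of arrays: Ndufb8 (-0.25, adjusted p = 0.0477) lost its call in 9 of 11 such fits (all but those without fresh TI array 2 or 3; -0.15 without fresh TI array 4) and turned to 0.16 under quantile normalization. Ndufs7 (-0.23) lost it in 4 (cultured TII 1 or 3, fresh TI 2 or 4; adjusted p up to 0.146 at -0.18). Atp5po (-0.24) lost it in 5 (cultured TII 1 or 3, fresh TI 1, 2 or 3; up to 0.169 at -0.16), and Ndufb11 (-0.56) in 3 (cultured TII 3, fresh TI 1 or 4; up to 0.111 at -0.45, and -0.36 without fresh TI array 4). Quantile normalization also turned Ndufs7 to 0.01 and Atp5po to 0.19 and left Ndufb11 uncalled (adjusted p = 0.0679). Without fresh TI arrays 1 and 4 together, 42 members were lower and 1 higher. Ndufb8, Ndufb11, Ndufs7, Atp5po and Cox4i1 were not called, and Atp5pb moved from -1.14 to -0.51.

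Across the 3 groups the mean level was highest in cultured TII for 48 members, in fresh TII for 5 (Atp5f1e, Ndufb11, Ndufs7, Ndufv2 and Ndufv3) and in fresh TI for 5 (Cox4i2, Cox5a, Cox6a2, Cox6c-ps1 and Ndufa4l2). It was lowest in fresh TI for 45, in fresh TII for 11 and in cultured TII for 2. No share over all genes is given for these counts, and bright genes leaned the same way. In culture 51 of 58 members had a positive difference, beside 567 of the 948 brightest and 2312 of all 4736 genes. For fresh TI minus cultured TII, 53 members had a negative difference, beside 586 and 1879. For 16 members every cultured TII array exceeded every fresh TII array, which in turn exceeded every fresh TI array; 5.07% of all genes and 12.3% of the brightest 20% showed this order. They were Ndufa4, Ndufa6, Ndufab1, Ndufb2, Ndufb3, Ndufc1, Ndufs4, Ndufs6 and Ndufs8 of complex I, Uqcrc2 and Uqcrfs1 of complex III, Cox5b, Cox6b1, Cox7a2l and Cox7b of complex IV, and Atp5f1a. The fresh TII arrays enter both neighbouring steps of this order.

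Several probe sets stood for 28 of the members and allowed the calls to be set beside other sequence of the same gene. Among the other probe sets of called members, 18 of 33 were called the same way in culture, 13 were not called and 2 were called the other way (Cox6c and Ndufaf3). For fresh TI minus fresh TII, 10 of 19 were called the same way, 6 were not called and 3 went the other way (Ndufa6, Ndufab1 and Ndufs4). For fresh TI minus cultured TII, 24 of 38 were called the same way, 10 were not called and 4 went the other way (Ndufa6, Ndufb11, Ndufb8 and Ndufs4). Of the 7 probe sets annotated to several genes, 5 were called higher and 1 lower in culture, 2 were lower in fresh TI than in fresh TII and all 7 were lower in fresh TI than in cultured TII.

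The arrays behind the least differences called in a complex, and behind the members whose probe sets disagreed, were as follows (log2 values). Ndufb2, of the membrane arm, read 8.873, 8.727, 8.649 and 8.653 in fresh TII, 9.353, 9.699 and 9.453 in cultured TII and 8.476, 8.554, 8.590 and 8.366 in fresh TI cells. Ndufb8, of the same arm, read 8.971, 8.836, 8.743 and 8.897 in fresh TII, 8.966, 8.997 and 9.039 in cultured TII and 8.813, 8.890, 8.841 and 8.467 in fresh TI cells. Ndufs7, an iron-sulfur subunit next to the ubiquinone site, read 8.099, 7.804, 7.917 and 8.008 in fresh TII, 8.045, 7.842 and 7.916 in cultured TII and 7.761, 7.702, 7.777 and 7.562 in fresh TI cells. Ndufb2 kept its 3 groups apart, Ndufb8 overlapped between the fresh groups and between the TII groups, and Ndufs7 separated fresh TI cells from both others. Ndufa6, an accessory subunit, read 7.917, 7.574, 7.593 and 7.611 in fresh TII, 8.135, 8.153 and 8.125 in cultured TII and 7.287, 7.312, 7.405 and 7.028 in fresh TI cells. Ndufb11, of the membrane arm, read 7.764, 7.467, 7.256 and 7.300 in fresh TII, 7.227, 7.194 and 7.517 in cultured TII and 6.664, 7.123, 7.057 and 6.181 in fresh TI cells. Ndufaf3, the assembly factor, read 6.108, 6.133, 5.913 and 6.028 in fresh TII, 6.610, 6.348 and 6.289 in cultured TII and 5.851, 6.096, 6.174 and 5.835 in fresh TI cells. The groups of Ndufa6 were separate, those of Ndufb11 overlapped between cultured and fresh TII, and those of Ndufaf3 overlapped between the fresh groups. Uqcrc2, the core protein, read 7.050, 6.962, 6.972 and 6.961 in fresh TII, 7.208, 7.096 and 7.094 in cultured TII and 6.530, 6.674, 6.732 and 6.452 in fresh TI cells. Cox6c, a small subunit of complex IV, read 7.126, 7.053, 7.070 and 7.011 in fresh TII, 7.276, 7.371 and 7.260 in cultured TII and 7.064, 7.140, 7.114 and 7.374 in fresh TI cells. Uqcrc2 kept all groups apart, while fresh TI array 4 of Cox6c exceeded every cultured array. Atp5f1b, the catalytic subunit, read 9.582, 9.461, 9.622 and 9.534 in fresh TII, 10.052, 9.995 and 9.995 in cultured TII and 9.249, 9.326, 9.516 and 9.197 in fresh TI cells. Atp5po, the stator subunit that confers oligomycin sensitivity, read 9.382, 9.283, 9.472 and 9.316 in fresh TII, 9.616, 9.233 and 9.520 in cultured TII and 9.177, 9.181, 9.199 and 9.294 in fresh TI cells. Slc25a3, the phosphate carrier, read 8.820, 8.728, 8.718 and 8.821 in fresh TII, 9.329, 9.340 and 9.402 in cultured TII and 8.544, 8.845, 8.742 and 8.392 in fresh TI cells. For Atp5f1b and Slc25a3 the cultured arrays lay above all others and the fresh groups overlapped, and Atp5po overlapped between every pair of groups. Atp5pb read 8.030, 8.248 and 8.452 in cultured TII cells, above every fresh array.

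Promoters were read because so many members moved together in culture. RefSeq gives the sequence from 250 bases before to 50 bases after the annotated start (build GRCr8) for 49 of the 58 members; Ndufa8, Ndufb9, Cyc1, Uqcr11, Cox4i2, Cox6a1, Cox6c, Cox6c-ps1 and Atp5pd had no entry. The adenine nucleotide translocase genes are shown because their calls differed. Slc25a4 was called in culture and Slc25a5 between the fresh groups, though both had the same sign in every comparison. Ndufa6 is shown because it holds 3 of the motifs searched, and Ndufs4 for its match beside the start. Capitals mark matches on either strand to GCGCANGCG (bound by NRF1), CCGGAAG (the ETS motif of GABP) or AAGATGGCG (bound by YY1), and each sequence is on its gene's strand.
Slc25a4, chr16:52805271-52805570, plus strand: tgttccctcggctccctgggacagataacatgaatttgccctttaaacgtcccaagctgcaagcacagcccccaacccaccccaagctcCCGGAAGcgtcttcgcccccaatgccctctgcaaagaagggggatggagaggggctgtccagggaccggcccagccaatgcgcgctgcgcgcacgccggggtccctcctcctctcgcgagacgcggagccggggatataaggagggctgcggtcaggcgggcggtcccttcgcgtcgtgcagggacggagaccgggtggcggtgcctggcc
Slc25a5, chrX:120897366-120897665, plus strand: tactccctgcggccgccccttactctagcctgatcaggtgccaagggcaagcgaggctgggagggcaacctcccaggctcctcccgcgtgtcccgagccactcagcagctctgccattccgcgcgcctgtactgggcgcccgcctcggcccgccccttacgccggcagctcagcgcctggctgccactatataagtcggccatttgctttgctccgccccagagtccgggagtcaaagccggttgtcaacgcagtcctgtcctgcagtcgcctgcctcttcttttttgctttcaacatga
Ndufa6, chr7:115750268-115750567, minus strand: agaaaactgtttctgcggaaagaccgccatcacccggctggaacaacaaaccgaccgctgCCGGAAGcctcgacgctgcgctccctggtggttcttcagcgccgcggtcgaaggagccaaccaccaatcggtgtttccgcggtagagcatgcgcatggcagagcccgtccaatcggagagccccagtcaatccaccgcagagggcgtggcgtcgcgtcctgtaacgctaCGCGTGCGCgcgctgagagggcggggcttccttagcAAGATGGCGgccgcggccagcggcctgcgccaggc
Ndufs4, chr2:47794865-47795164, minus strand: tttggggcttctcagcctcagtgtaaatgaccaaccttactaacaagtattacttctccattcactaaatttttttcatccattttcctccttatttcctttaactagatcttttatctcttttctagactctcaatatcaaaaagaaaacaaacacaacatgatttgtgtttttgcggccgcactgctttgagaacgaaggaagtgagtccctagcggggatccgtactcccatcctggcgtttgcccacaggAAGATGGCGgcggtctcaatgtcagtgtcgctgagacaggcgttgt

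The Slc25a4 match to the ETS motif begins at base -161 from the start, and the Slc25a5 window holds none of these letters. In Ndufa6 the matches begin at bases -190, -21 and 16, and in Ndufs4 at base 5. Over the 49 members, the NRF1 motif matched in 9 (18.4%), the ETS motif in 11 (22.4%) and the YY1 motif in 7 (14.3%), and 23 members held at least 1 of these. Among the promoters of 3872 genes on the array the shares were 9.4%, 12.3% and 2.5%, and among all 27457 promoters of the same length 6.26%, 9.22% and 1.93%. The YY1 matches were in Ndufa6, Ndufa9, Ndufb8, Ndufs4, Ndufs6, Ndufs7 and Atp5pf. Of these, Ndufb8 and Ndufs7 were not called in culture and the others rose, beside 35 of all 58 members and 20.5% of all genes. Under quantile normalization Atp5pf was not called either (adjusted p = 0.0503). The Sp1 motif GGGGCGGGG matched in 3 members (6.1%, against 18.1% of array genes and 10.42% of all promoters) and TATAAA in 2 (4.1%, against 11.4% and 14.26%). The NRF1 motif can overlap itself on the other strand, as in Atp5po. A match describes these letters only, and the absence of a match says only that they are not in this window.

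Other mitochondrial gene lists, chosen with earlier results of these data known, were also counted in culture, where 20.5% of all genes were called higher and 14.0% lower. Of 9 genes of the outer membrane, import and chaperones, 6 rose and 1 fell: the chaperonins Hspe1 and Hspd1 rose by 1.32 ± 0.15 and 0.81 ± 0.08 (log2), the import gene Timm17a by 0.70 ± 0.10, and Tspo fell by 0.51. Of 15 genes of the tricarboxylic acid cycle and pyruvate entry, 5 rose and 3 fell, with the malate dehydrogenase Mdh2 at 0.73 ± 0.22 and Pdk4, a kinase that shuts off pyruvate dehydrogenase, at -0.86 ± 0.23. Of 18 genes of fatty acid oxidation, 2 rose and 5 fell; Acadl rose by 1.05 ± 0.12 (its other probe set gave -0.07), and the rate-limiting transferase Cpt1a and the isomerase Eci1 fell by 1.09 and 0.94. Among 9 genes of uncoupling and phosphate energy transfer, 3 rose and 1 fell, and the mitochondrial creatine kinase Ckmt1, which draws on the ATP that the translocases export, rose by 2.83 ± 0.11 (adjusted p = 4.31e-10). Of 6 mitochondrial antioxidant genes, 2 rose, among them Prdx3 at 0.57 ± 0.11. Of 8 regulators of mitochondrial gene expression 2 rose and 3 fell, with Pparg at 0.78 ± 0.18, the mitochondrial DNA-binding Ssbp1 at 0.65 ± 0.10 and Nfe2l2 at -0.76 ± 0.22. Under all 4 scalings the counts held except 4 rather than 5 risers in the tricarboxylic acid cycle list, where Mdh2 was not called with quantile normalization, and 2 rather than 3 lower regulators.

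Between fresh TI and fresh TII cells, where 21.2% of all genes were called lower and 33.0% higher, fatty acid oxidation held 12 lower genes of 18 and 1 higher, with Acadm at -1.41 ± 0.16, Cpt1a at -1.30 ± 0.12 and Hadhb at -1.29 ± 0.18 (log2). The tricarboxylic acid cycle held 7 lower of 15 and 1 higher, the higher one being Pdha1, a subunit of pyruvate dehydrogenase (0.98 ± 0.09, its other probe set 0.96). Outer membrane, import and chaperone genes held 5 lower of 9 and 1 higher, with Hspa9 at -1.52 ± 0.15 (its other probe sets gave 0.35 and -0.84) and Hspd1 at -0.80 ± 0.08. Antioxidants held 4 lower of 6 and 1 higher, with the mitochondrial superoxide dismutase Sod2 at -1.38 ± 0.17. Uncoupling and energy transfer genes held 2 lower of 9 and 3 higher, with Ckb at -1.33 ± 0.21 and Ucp2 at 0.38 ± 0.10. The regulators held 2 lower of 8 and 1 higher, with Nfe2l2 at -1.75 ± 0.20. Under all 4 scalings, 10 genes of fatty acid oxidation, 6 of the tricarboxylic acid cycle, 5 of the outer membrane list and 2 antioxidants were called lower. No gene of the last 2 lists was called higher, and the other counts held. Fresh TI against cultured TII, where 25.8% of all genes were called lower and 34.2% higher, gave 10 lower of 18 for fatty acid oxidation and 10 of 15 for the tricarboxylic acid cycle, with 2 higher in each. The same comparison gave 7 of 9 lower and 2 higher for outer membrane, import and chaperones. Uncoupling and energy transfer had 5 lower and 2 higher of 9. Antioxidants had 4 lower of 6 and none higher, and regulators had 4 lower and 2 higher of 8. Under all 4 scalings, 9 genes of fatty acid oxidation, 8 of the tricarboxylic acid cycle and 3 antioxidants were called lower. Uncoupling and energy transfer kept 4 lower and 1 higher, and the other counts held.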

How the data were processed

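The deposited table gives 1 log2 value per probe set and array, as processed by the authors; the summary, background correction and normalization are not given in the sources used here, and log2 was inferred from a range that ends at 13.163. No depth applies to arrays; precision is limited by 3 or 4 arrays a group. Of 8799 probe sets, 59 controls were set aside and 8740 tested with no filter. The annotation gives exactly 1 gene for 7006; each gene was represented by its brightest set on average (4736 genes). Group means of all 11 arrays were fitted with limma 3.58.1 (lmFit and eBayes) in R 4.3.3, two-sided, with Benjamini-Hochberg adjustment per comparison; figures used matplotlib 3.10.9. The fit was tested on simulated data. The members and lists were chosen with earlier results of these data known. Per-array values were given, for each complex and comparison, for the called members with the largest and smallest difference, for isoform pairs and for some further members picked with their values known. Replicate numbers were not used as pairs: deviations of same-numbered arrays correlated at -0.20 to 0.28 and of others at -0.27 to 0.23. Alternatives were other scalings, filters on dim sets, eBayes options, array weights, a replicate block, a stricter threshold, other probe sets and left-out arrays. Leaving out fresh TI arrays 1 and 4 together, and the other scalings for the further gene lists, were chosen after seeing the data.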

Additional observations from a re-analysis of the deposited data

Results flagged for a closer look

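Within groups of 4 arrays, 6 of 118 sets of values (58 members and their median, in both fresh groups) had an array far from the other 3, by the gap relative to the group's range; chance flags about 1 in 20. In fresh TI, array 4 was low for Cox4i1, at 9.962 with the nearest array at 10.270. In fresh TII, array 1 was high for Atp5pd (8.626), Cox5b (8.758), Ndufa6 (7.917), Ndufb6 (6.897) and Uqcrc2 (7.050), with the nearest arrays at 8.442, 8.609, 7.611, 6.756 and 6.972. The cause was not tested.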

How the results depend on the processing

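The median member difference kept its sign under every alternative run, and precision is limited by 3 or 4 arrays a group. For fresh TI minus fresh TII, members called higher numbered 8 with quantile normalization, 5 with equal spread, 6 with array weights, 1 at an adjusted p under 0.01, and 5 with either the mean of all probe sets or sets without a shared-sequence suffix; quantile normalization gave 15 lower and a median of -0.0539. In culture, members called lower numbered 4 with quantile normalization, 0 with the mean of all probe sets, and 1 at the stricter threshold, without suffixed sets and with the replicate block; the median was 0.3180 with quantile normalization. For fresh TI minus cultured TII, 1 member was called higher with median centring, the replicate block, the stricter threshold, and without fresh TI arrays 1 and 4; the median was -0.3927 with quantile normalization, -0.5048 with equal spread and -0.5466 with the mean of all probe sets. With 1 array left out, members lower in culture ranged from 1 to 2, and those higher in fresh TI than in cultured TII from 1 to 3; members lower in fresh TI than in fresh TII ranged from 21 to 31 and risers in culture from 28 to 38. The replicate numbers do not pair the arrays, and the block left all other counts within 1.5 times.

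Some member differences changed sign; the cause was not tested. For fresh TI minus fresh TII, quantile normalization gave Atp5f1b 0.1087, Atp5f1d 0.1788, Cox4i1 0.1208, Ndufb2 0.0493 and Ndufb8 0.1778; equal spread gave Atp5f1d 0.0476, Cox4i1 0.0674 and Ndufb8 0.0504; array weights gave Atp5f1d 0.0123; the mean of all probe sets gave Ndufb8 0.0134; sets without a suffix gave Atp5f1d 0.0090 and Ndufb11 0.1080; and leaving out fresh TI arrays 1 and 4 gave Atp5f1d 0.0240, Cox8b -0.1135 and Ndufb8 0.0038. In culture, quantile normalization gave Cox4i2 -0.0583 and COX1 0.1223, equal spread Cox4i2 -0.0045 and the mean of all probe sets Cox6c -0.0909. For fresh TI minus cultured TII, quantile normalization gave Atp5po 0.1940, Cox4i1 0.0666, Cox6c 0.0133, Ndufb8 0.1610 and Ndufs7 0.0141; equal spread Atp5po 0.0032 and Cox4i1 0.0209; the mean of all probe sets Cox6c 0.4829 and Cox8b 0.1390; and sets without a suffix Ndufb11 0.5197. Ndufa4l2, at 0.0008, turned to -0.0483 with median centring, -0.0738 with array weights, -0.0474 with the replicate block and -0.0870 without fresh TI arrays 1 and 4. With 1 array left out, Ndufa4l2 ran from -0.0687 to 0.0577 and Cox8b from -0.2053 to 0.0220 for fresh TI minus cultured TII, and Cox4i2 from -0.0287 to 0.0683 in culture.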
